A study of Rattus norvegicus with 12 samples.

Results

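Long intergenic noncoding RNAs (lincRNAs) with an appreciable level in rat bone marrow derived cells were examined in 12 RNA sequencing libraries. The members are the rows of the BF table that the authors annotate as lincRNA and whose mean over the 6 BF libraries is at least 20 normalized counts, which gave 82 of 737 lincRNA rows and of 19355 genes in all. All 82 were also listed in the BMSC table. They were thus chosen by their mean level in the BF libraries, so that level is a description and supports no finding. Just outside the threshold lay AABR07067034.1 with a mean of 19.4 normalized counts, AABR07000670.1 with 19.7 and AABR07015917.1 with 19.9. Just inside it lay Rn60_X_0635.2 with 20.1, AABR07012065.1 with 20.4 and AABR07041411.1 with 21.1.

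The cells were wild-type rat bone marrow mesenchymal stem cells (BMSCs) kept in chondrogenic induction medium, with 3 libraries in each of 4 groups. BMSC-CT was exposed to CTGF, the connective tissue growth factor, for 1 week with TGF-β1 following it, and BMSC-C was its control. BF-D consisted of BMSCs labelled as fibrotic and given docetaxel, a drug that stabilizes microtubules, and BF-C of fibrotic BMSCs without it. Strain, age, doses, the length of the docetaxel treatment and whether replicates came from separate cultures are not given in the sources used here, so p-values measure the spread between these libraries only.

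Each library held 15580310 to 19870047 reads, a single one of which equals 0.813 to 1.61 normalized counts. BMSC-CT replicate 3 stood apart, with 14621 genes with reads against 16100 and 16443 in the other BMSC-CT libraries. BF-D replicate 2 also differed from its group, with fibroblast markers (6 of 6 listed) at 6.37% of reads against 8.34% and 8.79%. Macrophage markers (9 of 9 listed) took 0.822% to 1.21% of reads in BMSC-CT and 0.793% to 0.949% in BMSC-C, against at most 0.00627% in BF-D and 0.00434% in BF-C. Mesenchymal stromal markers (9 of 9 listed) took 0.0886% to 0.205% of reads in BMSC-CT, where 1 of them was at 0 in replicate 3, and 0.342% to 0.381% in BMSC-C. They took 0.474% to 0.532% in BF-D and 0.551% to 0.554% in BF-C. Cartilage markers (5 of 6 listed) stayed at or below 0.000625% of reads in BF-D and 0.000590% in BF-C, and were lower still in both BMSC groups. In bulk RNA, fewer cells of a type and less RNA per cell cannot be told apart.

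LincRNAs are transcribed from the stretches between protein coding genes, and many are spliced and polyadenylated like messenger RNAs without encoding a protein. Some act in the nucleus on the transcription of neighbouring genes, some hold protein complexes together, and for most no function is known. They are known for levels that are lower and more restricted to a cell type than those of coding genes. A lincRNA that starts back to back with a coding gene shares with it the stretch of DNA that holds both start sites, an arrangement called head to head or divergent.

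No member carried the symbol of a characterised noncoding RNA. Names of sequence clones made up 61 (AABR) and 7 (AC) of the 82, a further 11 names began with Rn60, and 3 were LOC names. Of 64 symbols of known noncoding RNAs looked up, each table listed 2 under these names: Terc, the RNA of telomerase, and Fendrr, a developmental lincRNA, in the BMSC table, and Fendrr and Snhg11, a host of small nucleolar RNAs, in the BF table. None of them was a member, and only Fendrr in the BMSC table was high enough to be tested. It had 1.81, 2.11 and 0 normalized counts in BMSC-CT, and its log2 difference from BMSC-C was -1.02 ± 0.75 (SE), with a limma adjusted p of 0.337. Only 2 of the 82 members matched a gene of the RefSeq tables by symbol.

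Because the members' own start regions could hardly be matched, the upstream sequences of the coding genes that start head to head with AABR07013701.1 and AABR07045680.1 are shown. Cyr61 (Ccn1 in RefSeq) encodes a secreted matrix protein of the same family as CTGF, and Cd99 encodes a cell surface glycoprotein. In the deposited coordinates the start of AABR07013701.1 lay 2595 bases from that of Cyr61, and the start of AABR07045680.1 lay 1024 bases from that of Cd99, each lincRNA pointing away from its partner. Both lines give the 250 bases before the RefSeq start in rat build GRCr8, 5′ to 3′ on the coding gene's strand, at chr2:237225690-237225939 (minus strand) for Cyr61 and chr20:56005089-56005338 (minus strand) for Cd99. Capitals mark the motif GGAATG, the binding letters of TEAD factors, searched on both strands. No other motif was searched.
Cyr61: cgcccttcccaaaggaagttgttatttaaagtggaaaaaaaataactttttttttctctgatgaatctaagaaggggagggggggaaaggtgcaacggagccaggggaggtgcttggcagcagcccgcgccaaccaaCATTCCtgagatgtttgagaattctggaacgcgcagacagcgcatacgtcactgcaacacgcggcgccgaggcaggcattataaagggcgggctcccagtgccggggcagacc
Cd99: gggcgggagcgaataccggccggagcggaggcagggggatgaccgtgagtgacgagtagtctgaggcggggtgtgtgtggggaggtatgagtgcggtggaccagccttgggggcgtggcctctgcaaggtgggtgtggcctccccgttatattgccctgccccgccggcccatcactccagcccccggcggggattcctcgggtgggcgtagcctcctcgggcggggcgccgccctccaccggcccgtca
The Cyr61 sequence held 1 match, on the opposite strand, whose first base lay 113 bases before the start, and the Cd99 sequence held 0. The motif occurred in 12.1% of the 33469 upstream sequences of the same length. The Cd99 sequence held 23 CG pairs and the Cyr61 sequence 14, against a median of 5 over all upstream sequences. A match describes letters only and says nothing about binding in these cells.

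The members were shorter and lower than coding genes that passed the same minimum. Their median deposited length was 1619 bases, with a range of 236 to 6099, against 2412 bases for 11765 protein coding genes. Per length, their median level in CPM (recovered reads scaled to the total of the library) per kilobase was 0.679 in BMSC-CT and 1.74 in BMSC-C, where coding genes had 7.01 and 10.1. In BF-D it was 1.94 and in BF-C 2.35, where coding genes had 9.75 and 9.73. The members' median was thus below that of coding genes in both BMSC groups, which the rule did not use, and the BF values are a description. They lay on 20 chromosomes, with 9 on chromosome 3 and 7 on chromosome X as the highest counts. Of the 82, 75 had a mean of at least 20 normalized counts in both BF-D and BF-C, 2 passed only through BF-D and 5 only through BF-C. In the BMSC table, 37 had such a mean in BMSC-CT and 53 in BMSC-C.

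Together the 82 members took 0.0598% ± 0.0152 of reads in BMSC-CT, 0.0490% ± 0.0037 in BMSC-C, 0.0406% ± 0.0018 in BF-D and 0.0455% ± 0.0026 in BF-C (SD, n = 3 each). In BMSC-CT 1 member made up most of this sum: LOC102549726 held 51.9%, 59.5% and 78.7% of the members' reads in BMSC-CT, and 22.3%, 29.9% and 34.4% in BMSC-C. LOC102549726 (chr20:4871264-4873982, minus strand) lies among class I genes of the rat major histocompatibility complex and overlaps RT1-CE4, RT1-CE2 and RT1-CE7, so its reads are uncertain, since how the authors assigned reads that fit several of these genes is not given in the sources used here. It had 4299, 5165 and 16920.0 normalized counts in BMSC-CT, against 1720 (replicate 1), 2097 and 2384 in BMSC-C. The groups did not overlap, and replicate 3 of BMSC-CT was the highest of all. Its log2 difference was 1.82 ± 0.52 (SE), with a limma adjusted p of 0.0556. Leaving out BMSC-CT replicate 3 gave 1.20, with an adjusted p of 0.00106. In the BF libraries it had 548, 830.0 and 499.6 normalized counts in BF-D and 557, 559 and 559 in BF-C.

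**Figure D1:**
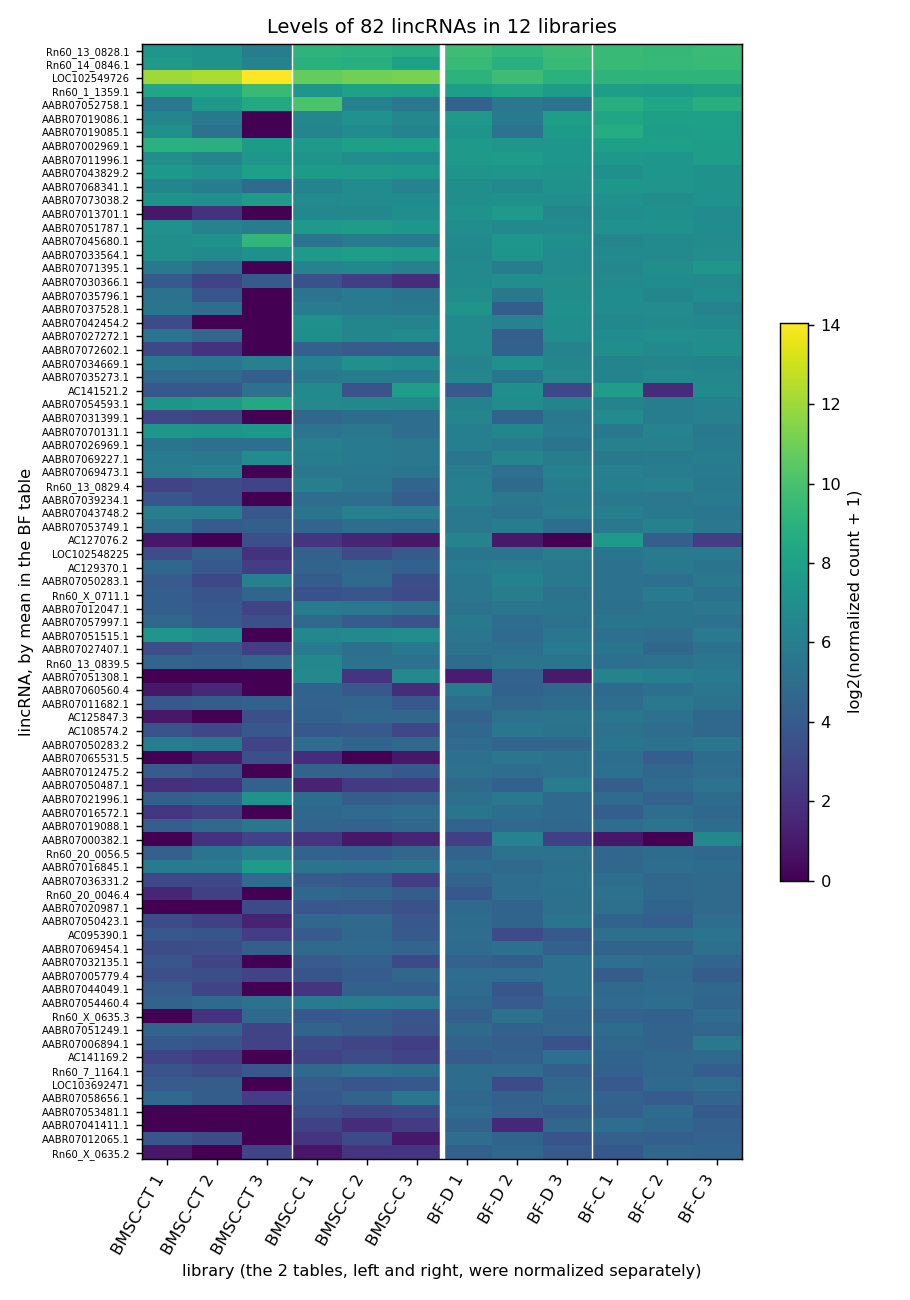
Levels of the 82 lincRNAs (rows, from the highest to the lowest mean in the BF table) in 12 libraries (columns: BMSC-CT, BMSC-C, BF-D and BF-C, replicates 1 to 3), as log2(normalized count + 1). Dark cells are libraries with few or no reads: 25 of the 82 members had 0 reads in BMSC-CT replicate 3, against 7 and 8 in the other BMSC-CT libraries.

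Among the members with the highest means in the BF table, Rn60_13_0828.1, between the genes of the matrix proteins tenascin N and tenascin R, had 822, 629 and 791 normalized counts in BF-D and 721, 650.3 and 772 in BF-C. Rn60_14_0846.1, head to head with the chromatin gene Morc2 at 1505 bases, had 719, 484 and 706 in BF-D and 708, 691 and 700.1 in BF-C. Rn60_1_1359.1, 2.23 kilobases from the chromatin remodeller gene Chd2, had 234, 301 and 213 in BF-D and 227, 219 and 249 in BF-C. In none of these 3 were the BF groups separate. AABR07019086.1 and AABR07019085.1 lie next to each other on the minus strand of chromosome 15. The first had 184, 57.2 and 225 normalized counts in BF-D and 316, 254 and 249.7 in BF-C. The second had 152, 39.8 and 197 in BF-D and 407, 236 and 247 in BF-C. In both, the BF groups were separate with BF-D replicate 2 as the lowest library, neither passed the test (limma adjusted p = 0.706 each), and in BMSC-CT replicate 3 both had 0 reads. Set per length, AABR07002969.1 was the highest member in BF-C at 29.1 CPM per kilobase, followed by AABR07042454.2 at 24.4 and LOC102549726 at 21.9.

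The first comparison asked what docetaxel did to lincRNA levels in fibrotic BMSCs. In BF-D 1 member fell and none rose: AABR07052758.1 (chr3:74226407-74229066, minus strand, 2084 bases of transcript), a lincRNA with no known function. It had 20.2, 46.5 and 39.8 normalized counts in BF-D, against 461, 309 and 441 in BF-C. The highest BF-D library was thus far below the lowest BF-C library. The log2 difference was -3.53 ± 0.32 (SE), with a limma adjusted p of 0.0427. By p-value it ranked 1 among the 17076 genes tested. In the authors' deposited table it also ranked 1, with a log2 fold change of -3.50 and an adjusted p of 2.41e-26.

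Of all genes tested, limma called 0.00586% lower and 0.00586% higher in BF-D, which is 1 gene in each direction. The 1 lower gene of 17076 was AABR07052758.1 itself, so nothing about the 82 members as a set is read from this call. The count of higher members was 0 by limma, by edgeR (0.0% of all genes) and by DESeq2 (0.191%), and 1 at an unadjusted p under 0.05 (3.26% of all genes). At the same unadjusted threshold 6 members were lower (2.94% of all genes). The groups were separate with BF-D higher for 2 members (7.78% of all genes) and with BF-D lower for 10 (9.04% of all genes). The median log2 difference over the members was -0.05, against -0.004 over all genes tested. The rule used the mean of these libraries and not their difference. But 5 members reached the minimum of 20 only through BF-C and 2 only through BF-D. The counts by direction thus partly lean on the choice of members and are given as a description.

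The call of AABR07052758.1 was close to the threshold. Its limma adjusted p was 0.140 without BF-D replicate 3, 0.344 without BF-C replicate 1, 0.189 without BF-C replicate 2 and 0.348 without BF-C replicate 3, while without BF-D replicate 2 it was 1.42e-05; the log2 difference stayed between -3.18 and -3.76 over the 6 libraries left out in turn. edgeR gave an adjusted p of 0.0579, and called 0 members lower. DESeq2 gave 2.48e-26, and called 2 lower, where it called 0.171% of all genes lower. In the BMSC libraries the same lincRNA varied widely within groups, with 46.1, 178 and 372 normalized counts in BMSC-CT and 1076, 70.2 and 46.8 in BMSC-C. The groups overlapped, and the log2 difference of -0.07 ± 1.32 (SE) had a limma adjusted p of 0.972. Its nearest protein coding gene, Potef, lay 1414 kilobases away, the largest such gap of any member.

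A second member was low in BF-D without passing the main test. AABR07051308.1 (chr3:4730990-4772154, plus strand) had 1.06, 20.4 and 1.05 normalized counts in BF-D, against 76.2, 63.0 and 56.0 in BF-C. The groups were separate, and BF-D replicate 2 was nearest to BF-C. Its log2 difference was -3.87 ± 0.85 (SE), with a limma adjusted p of 0.458, and without BF-D replicate 2 it was -5.00, with 3.52e-05. In the authors' deposited table it had a log2 fold change of -3.10 and an adjusted p of 0.0264. Counting without BF-D replicate 2 gave 2 lower members, this one and AABR07052758.1, and 0 higher ones, where 0.811% of all genes were called lower and 0.729% higher. AABR07051308.1 is among the 5 members that reached the minimum of 20 only through BF-C. Its difference between BF-D and BF-C thus leans on the choice of members and is given as a description.

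Both were also uneven in BMSC-C. AABR07051308.1 had 97.6, 3.38 and 96.2 normalized counts in BMSC-C, and 0 reads in each of the 3 BMSC-CT libraries. Against a floor of 3 reads over the BMSC-CT group it was at least 55.2-fold lower in BMSC-CT, and the limma adjusted p was 0.0346. Leaving out single libraries moved that p between 0.00905 and 0.137.

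The next members by p were far smaller in effect. AABR07002969.1 had 185, 165 and 174 normalized counts in BF-D and 255, 241 and 223 in BF-C, a log2 difference of -0.46 ± 0.13 (SE). AABR07050283.2, which overlaps AABR07050283.1 on the other strand, had 28.7, 23.3 and 24.1 in BF-D and 42.4, 38.4 and 44.3 in BF-C, a log2 difference of -0.70 ± 0.23 (SE). In both the groups were separate, and neither passed, with a limma adjusted p of 0.706 each. AC095390.1, beside the checkpoint kinase gene Chek2, had a log2 difference of -1.14 ± 0.43 (SE) and the same adjusted p. This difference is given as a description, since a low member can reach the minimum of 20 mainly through BF-C. Among the members higher in BF-D, in order of p, the first was AABR07005779.4 with 30.9, 32.0 and 34.6 normalized counts in BF-D and 16.9, 26.7 and 16.7 in BF-C, a log2 difference of 0.70 ± 0.28 (SE) and a limma adjusted p of 0.706. AABR07065531.5 (log2 difference 0.59), AABR07045680.1 (0.40), AABR07050283.1 (0.42) and AABR07021996.1 (0.44) followed in that order of p, with the same adjusted p.

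**Figure D2:**
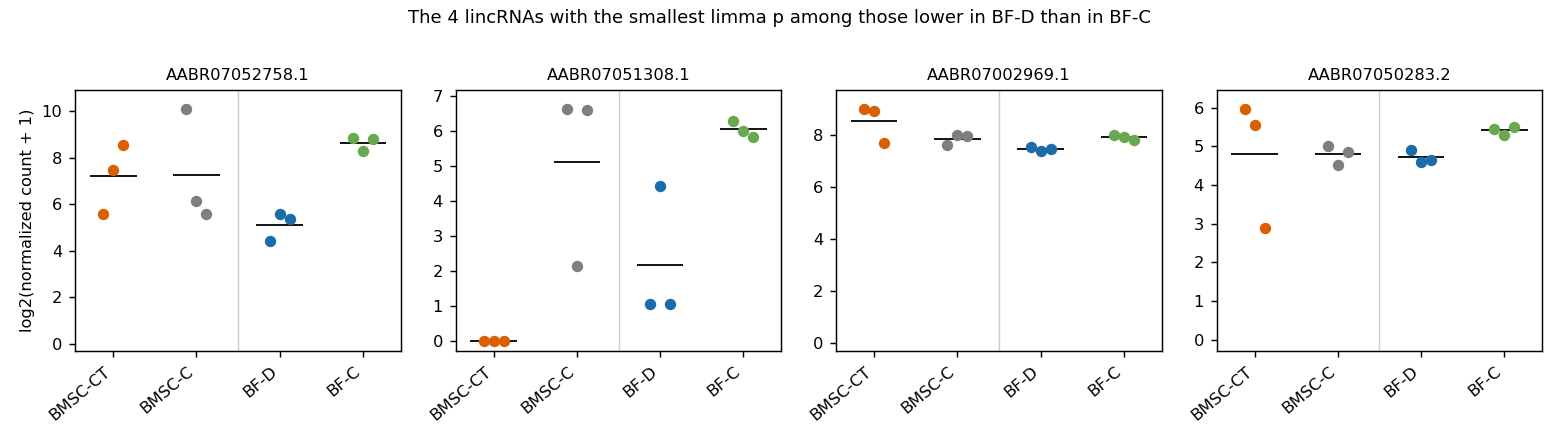
Levels of AABR07052758.1, AABR07051308.1, AABR07002969.1 and AABR07050283.2 in the 12 libraries, as log2(normalized count + 1); points are libraries, bars are group means, and the BMSC and BF tables were normalized separately. AABR07052758.1 and AABR07051308.1 had log2 differences of -3.53 and -3.87 between BF-D and BF-C, against -0.46 and -0.70 for AABR07002969.1 and AABR07050283.2.

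The second comparison asked how lincRNAs differed after CTGF and TGF-β1, and the rule did not use these libraries. In BMSC-CT 12 members fell and 1 rose of 82 tested. Over all 16818 genes tested, 10.9% were called lower and 7.7% higher by limma. In this fit the 14.6% of members called lower was near that share and the 1.22% called higher was under it. In some other fits, given below, the share of members called lower stood further above that of all genes. The median log2 difference over the members was -0.90, against -0.15 over all genes. The 3 members without reads in BMSC-CT lay below this median both as fitted and at their bound, so setting them to the bound could not move it. Cell type markers moved between these groups as well. Of the mesenchymal stromal markers 3 fell (Cxcl12 at -6.98, Pdgfra at -3.14, Thy1 at -1.31) and 1 rose (Eng at 1.23), and their summed share was lower in BMSC-CT, as given above. Of the macrophage markers 3 rose (Csf1r at 2.12, Cd68 at 1.81, Lyz2 at 1.41) and 2 fell (Cd74 at -2.82, Adgre1 at -1.50), while their summed share overlapped. Of the 6 fibroblast markers 2 rose (Col3a1 at 2.99, Col1a1 at 2.39) and none fell, and their summed share was 0.833% to 2.27% in BMSC-CT and 1.11% to 1.28% in BMSC-C. The part of these markers in the lincRNA differences was not tested. Without BMSC-CT replicate 3, 28 members (34.6%) fell and 6 (7.41%) rose of 81 tested, where 23.5% and 19.5% of all genes were called. The medians were then -0.50 and -0.08. All 13 members called with 6 libraries also had a limma adjusted p under 0.05 without that library, the highest being 0.0167. Single other libraries also mattered: 7 members fell without BMSC-CT replicate 2, 2 without BMSC-C replicate 1, 3 without BMSC-C replicate 2 and 4 without BMSC-C replicate 3, and 4 rose without BMSC-CT replicate 1. The share of all genes called in these fits is not given here, so nothing particular to lincRNAs is read from these counts. AABR07013701.1, AABR07053481.1 and AABR07070131.1 passed with each of the 6 libraries left out in turn, with highest limma adjusted p-values of 0.0235, 0.0371 and 0.0457, and the other 10 called members did not pass without BMSC-C replicate 1. DESeq2 called 24 members (29.3%) lower and 4 (4.88%) higher, where 14.6% of all genes were called in each direction. edgeR called 9 (13.0%) lower and 4 (5.8%) higher of 69 tested, where 12.3% and 11.2% of all genes were called. The split also moved with the scaling. After quantile normalization 9 (11.0%) were lower and 4 (4.88%) higher, where 10.7% and 11.5% of all genes were called. Once the dependence on gene length was removed within each library, 15 (18.3%) were lower and 4 (4.88%) higher, where 10.7% and 12.5% of all genes were called. The groups were separate, with BMSC-CT lower, for 35 members, or 42.7%, against 28.9% of all genes. With BMSC-CT higher they were separate for 7 members, or 8.54%, against 23.3% of all genes.

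Among the members that kept any reads in BMSC-CT, AABR07013701.1 fell most by the limma fit (chr2:251534907-251607676, plus strand), the lincRNA head to head with Cyr61, whose upstream sequence was shown above. It had 0.904, 3.17 and 0 normalized counts in BMSC-CT, against 92.7, 92.2 and 128 in BMSC-C. Each BMSC-CT library was thus close to 0. Its log2 difference was -5.71 ± 0.61 (SE), with a limma adjusted p of 0.00239. Cyr61 itself had 142, 158 and 135 normalized counts in BMSC-CT and 7467, 7102 and 8276 in BMSC-C, a log2 difference of -5.70 ± 0.18 (SE) and a limma adjusted p of 0.000165. Further genes nearby were lower too: AABR07013701.2, annotated as protein coding and 163 bases away, by a log2 difference of -4.68, and Ddah1, an enzyme that breaks down an inhibitor of nitric oxide synthesis, by -3.54, with limma adjusted p-values of 0.00263 and 0.000498. Under docetaxel none of this moved past the test: AABR07013701.1 had 149, 183 and 89.0 normalized counts in BF-D and 118, 130.3 and 107 in BF-C, with a limma adjusted p of 0.814, and Cyr61 had a log2 difference of 0.25 with 0.706.

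AABR07053481.1, 280 kilobases from Thbs1, the gene of the matrix protein thrombospondin 1, had 0 reads in each BMSC-CT library and 9.76, 6.77 and 7.80 normalized counts in BMSC-C. Against the floor of 3 reads over the group it was at least 6.81-fold lower in BMSC-CT, with a limma adjusted p of 0.00576. Thbs1 had a log2 difference of -5.47, with 0.00735. AABR07042454.2, a transcript of 236 bases that lies 120 bases from Haus7, a subunit of the augmin complex that nucleates microtubules, had 8.14, 0 and 0 normalized counts in BMSC-CT and 131, 87.1 and 76.3 in BMSC-C. All of its BMSC-CT values lay below all of its BMSC-C values, with a log2 difference of -5.53 ± 0.93 (SE) and a limma adjusted p of 0.0115. Haus7 itself, with a log2 difference of -0.88, did not pass (limma adjusted p = 0.183), nor did Bgn, the gene of the matrix proteoglycan biglycan 16015 bases away, at 0.24 (limma adjusted p = 0.486).

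Rn60_13_0828.1 and Rn60_13_0829.4 lie on chromosome 13 on either side of the mitochondrial ribosome gene Mrps14. Rn60_13_0828.1 had 157, 145 and 59.6 normalized counts in BMSC-CT and 572, 492 and 425 in BMSC-C, a log2 difference of -2.14 ± 0.41 (SE) and a limma adjusted p of 0.0185. Rn60_13_0829.4 had 6.33, 8.44 and 6.44 in BMSC-CT and 62.6, 44.8 and 23.4 in BMSC-C, a log2 difference of -2.37 ± 0.49 (SE) and a limma adjusted p of 0.0223. In both the groups were separate. Tnn, the tenascin gene 7.05 kilobases from Rn60_13_0828.1, had a log2 difference of 1.12 and did not pass (limma adjusted p = 0.0585).

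The other 7 members called lower were AABR07041411.1, AABR07027407.1, AABR07016572.1, Rn60_20_0046.4, AABR07051308.1, AABR07012047.1 and Rn60_7_1164.1, with limma adjusted p-values of 0.0213 to 0.0432. AABR07041411.1 had 0 reads in each BMSC-CT library and was at least 3.52-fold lower on the floor of 3 reads over the group. Rn60_7_1164.1 showed the smallest fall, with 10.9, 8.44 and 12.9 normalized counts in BMSC-CT and 26.8, 36.4 and 32.9 in BMSC-C. Next to Rn60_7_1164.1, 84.8 kilobases away, the interferon-inducible gene Ly6e rose by a log2 difference of 2.91 (limma adjusted p = 0.00772).

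AABR07070131.1 (chr8:53831526-53838620, plus strand) was the 1 member that rose. It had 170.0, 151 and 171 normalized counts in BMSC-CT, against 39.8, 45.7 and 31.2 in BMSC-C. The BMSC-CT libraries lay close together and far above BMSC-C, with a log2 difference of 2.06 ± 0.30 (SE) and a limma adjusted p of 0.00732. It ends 478 bases from the end of Ncam1, the gene of a neural cell adhesion molecule. Ncam1 had 1347, 1101 and 145 normalized counts in BMSC-CT and 397, 322 and 243 in BMSC-C, so its groups overlapped through BMSC-CT replicate 3 (log2 difference 0.93, limma adjusted p = 0.424).

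**Figure D3:**
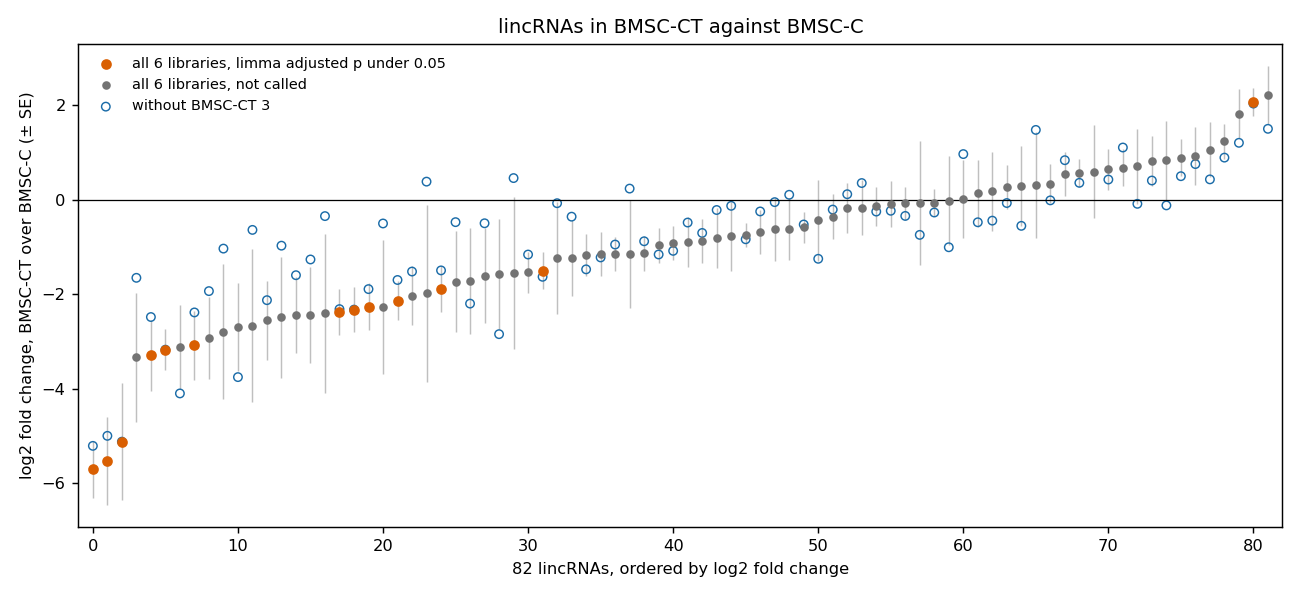
Log2 fold change of the 82 lincRNAs between BMSC-CT and BMSC-C, in order of size; bars are standard errors, orange points the 13 members called by limma and open circles the values without BMSC-CT replicate 3. AABR07013701.1 lies at -5.71, AABR07042454.2 at -5.53 and the called rise, AABR07070131.1, at 2.06; the fitted values of the 3 members with 0 reads in every BMSC-CT library (AABR07051308.1, AABR07053481.1 and AABR07041411.1) depend on the pseudocount, so their place in the order is not settled.

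Position beside coding genes was described next. The nearest protein coding gene lay within 1000 bases of 11 members, within 5000 bases of 22 and within 50000 bases of 56, with a median gap of 17.5 kilobases. Between BMSC-CT and BMSC-C, the log2 differences of lincRNA and nearest coding gene had a Spearman rho of 0.35 over the 75 pairs in which both were tested, and of 0.70 over the 22 pairs with a gap of at most 5000 bases. Without BMSC-CT replicate 3 these were 0.39 over 73 pairs and 0.67 over 22. Between BF-D and BF-C they were 0.006 over 71 pairs and 0.08 over 22, and without BF-D replicate 2 they were 0.21 over 72 and 0.13 over 22. Both values of a pair come from the same libraries, so shared depth and RNA quality enter both, and no p is given. The sign was the same in 49 of 75 pairs in the BMSC comparison and in 36 of 71 in the BF comparison, or 49 of 73 without BMSC-CT replicate 3 and 45 of 72 without BF-D replicate 2.

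Among the 3 nearest coding genes of each member, 9 members had one that started head to head within 5000 bases, a limit chosen after the positions were seen. The partners were Ncoa3, a nuclear receptor coactivator (74 bases), Camsap1, which binds microtubule minus ends (113 bases), Pan3, a deadenylase subunit (420 bases), Wdr12, a ribosome biogenesis factor (429 bases), Cd99 (1024 bases), Morc2 (1505 bases), Col1a1, a chain of type I collagen (2497 bases), Cyr61 (2595 bases) and Setd1b, a histone methyltransferase (4423 bases). AABR07045680.1, the partner of Cd99 whose upstream sequence was shown above, had 126, 147 and 599 normalized counts in BMSC-CT and 39.8, 51.6 and 52.0 in BMSC-C. Cd99 had 8452, 11528 and 62424 in BMSC-CT and 2247, 3776 and 4185 in BMSC-C. Both were highest in BMSC-CT replicate 3 and separate between the groups. Their log2 differences of 2.21 and 2.47 had limma adjusted p-values of 0.0522 and 0.0637, and without that library they were 1.50 and 1.59, with 0.00246 and 0.00241.

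Of the other head to head pairs, AABR07035273.1 and Pan3 had log2 differences of -1.15 and -1.29, AABR07051249.1 and Camsap1 -0.17 and -0.91, AC129370.1 and Wdr12 -0.81 and 0.24, Rn60_14_0846.1 and Morc2 -1.54 and -0.55, and AABR07036331.2 and Setd1b 0.14 and -0.96. None of these 5 lincRNAs or their partners passed the test with all 6 libraries. In BMSC-CT replicate 3 Pan3 was at 22.5 and Setd1b at 17.7 normalized counts. Without that library the pairs had, in the same order, -0.95 and -0.17, 0.35 and -0.59, -0.22 and -0.08, -1.16 and -0.24, and -0.48 and 0.57. Camsap1 and Setd1b then had limma adjusted p-values of 0.0146 and 0.0270. AABR07054593.1, 74 bases from Ncoa3, had 155, 198 and 361 normalized counts in BMSC-CT and 95.1, 94.8 and 92.7 in BMSC-C, a log2 difference of 1.23, while Ncoa3 had -0.66 (limma adjusted p = 0.657). Ncoa3 was at 48.3 normalized counts in BMSC-CT replicate 3, against 869.8 and 716 in the other BMSC-CT libraries, and without replicate 3 the log2 differences were 0.89 and 0.67. AABR07030366.1, beside Col1a1, had 14.5, 6.33 and 14.5 normalized counts in BMSC-CT and 10.6, 5.08 and 2.60 in BMSC-C, a log2 difference of 0.93 ± 0.61 (SE) that did not pass (limma adjusted p = 0.288). Col1a1 itself rose by a log2 difference of 2.39 ± 0.24 (SE), with a limma adjusted p of 0.00200.

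**Figure D4:**
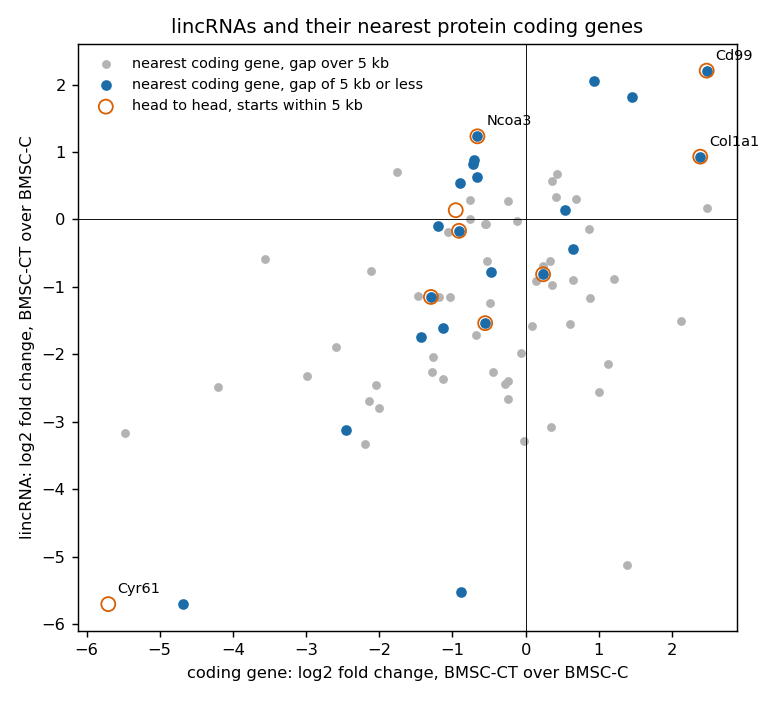
Log2 fold change between BMSC-CT and BMSC-C of each lincRNA (vertical axis) against that of its nearest protein coding gene (horizontal axis); blue points are gaps of 5 kilobases or less, and orange rings the head to head partners. The AABR07013701.1 and Cyr61 pair lies at -5.71 and -5.70 and the AABR07045680.1 and Cd99 pair at 2.21 and 2.47.

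Levels in the control groups were set side by side as CPM, because the BF and BMSC tables were normalized separately, and without a test. With 0.05 CPM added to each mean, 7 members were over 4-fold higher in BF-C than in BMSC-C with separate libraries, and 1 was over 4-fold lower, while without that addition 9 were higher. Over all genes compared, 5.82% and 6.48% did so with the addition, and since the members were chosen for their BF level nothing is read from the count. AABR07030366.1 averaged 6.17 ± 0.56 CPM in BF-C and 0.416 ± 0.28 in BMSC-C (SD, n = 3 each), a ratio of 14.8 with nothing added. Its partner Col1a1 belongs to the fibroblast markers, which took 9.10% to 9.49% of reads in BF-C and 1.11% to 1.28% in BMSC-C. AABR07065531.5 lies between Dlk1 and Rtl1, imprinted genes of a cluster known for its noncoding RNAs. It averaged 1.59 ± 0.50 CPM in BF-C and 0.0748 ± 0.085 in BMSC-C. The 1 lower member was LOC102549726, with 33.3 ± 0.23 CPM in BF-C and 140.0 ± 19.8 in BMSC-C. Fibroblast markers were higher and macrophage markers lower in BF-C than in BMSC-C, as given above, and their part in these levels was not tested.

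Several members differed between libraries of the same group far more than most genes did. The highest library was over 10-fold above the lowest (each with 1 added) for 4 members in BF-D and 3 in BF-C, where 0.480% and 0.496% of all genes with a BF mean of at least 20 did so. It was so for 18 members in BMSC-CT and 3 in BMSC-C, where 9.28% and 0.424% of all such genes did so. AC141521.2 had 14.9, 125 and 7.33 normalized counts in BF-D, 233, 2.14 and 101 in BF-C, 13.6, 13.7 and 38.6 in BMSC-CT and 106, 11.0 and 237 in BMSC-C. AC127076.2 had 77.7, 0.970 and 0 in BF-D and 189.8, 18.2 and 4.92 in BF-C. AABR07000382.1 had 5.32, 73.7 and 5.24 in BF-D and 0.847, 0 and 92.4 in BF-C. In each of these 3 a single library carried most of the normalized counts of each BF group, and BF-D and BF-C overlapped. In BMSC-CT replicate 3, 25 members (30.5%) had 0 reads, against 5.81% of all genes with the same minimum. AABR07051515.1, for example, had 161, 112 and 0 normalized counts in BMSC-CT and 91.9, 99.8 and 119 in BMSC-C. In BMSC-CT replicates 1 and 2, 8.54% and 9.76% of members had 0 reads, against 1.13% and 1.41% of all such genes. The median BF mean was 43.6 for members and 403 for coding genes with the same minimum. The part of this lower level in the unevenness was not tested.

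**Figure D5:**
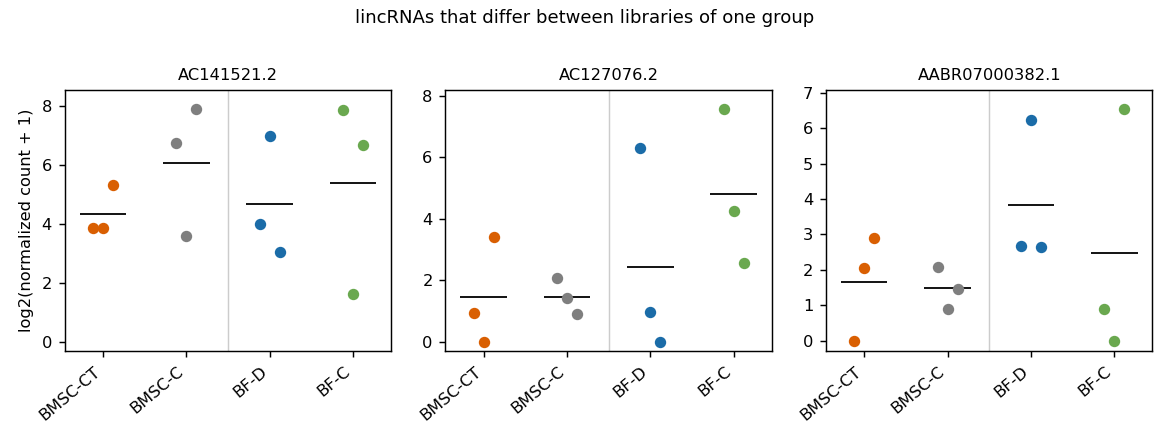
Levels of AC141521.2, AC127076.2 and AABR07000382.1 in the 12 libraries, as log2(normalized count + 1); points are libraries and bars group means. In BF-C the libraries of AC141521.2 ran between 2.14 and 233 normalized counts.

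Genes known to work with noncoding RNAs were looked up as lists. Of the paraspeckle and nuclear speckle proteins, which bind RNAs retained in the nucleus, 4 of 20 tested fell in BMSC-CT and none rose, with a median log2 difference of -0.54, where 10.9% of all genes were called lower and 7.7% higher with a median of -0.15. Pspc1, a core paraspeckle protein, had 83.2, 61.2 and 46.7 normalized counts in BMSC-CT and 364, 390.0 and 352 in BMSC-C, a log2 difference of -2.55 and a limma adjusted p of 0.00327. Matr3, a nuclear matrix protein, fell by 2.22 on the log2 scale, Srsf1, a splicing factor, by 1.21 and Nono, a paraspeckle protein, by 0.74, with limma adjusted p-values of 0.0198, 0.0169 and 0.0488. Of the imprinted genes 3 of 17 tested fell and none rose, beside the same 10.9% and 7.7% of all genes: Igf2, a fetal growth factor, at -3.88, Dlk1, a Notch family ligand, at -2.80, and Nnat at -2.15, with limma adjusted p-values of 0.0179, 0.0205 and 0.0103. Igf2 had 0.904, 0 and 3.22 normalized counts in BMSC-CT, and 13.0, 39.8 and 44.2 in BMSC-C. Dlk1 had 0 reads in each BMSC-CT library and 8.94, 8.46 and 2.60 normalized counts in BMSC-C. Its fitted value thus depends on the pseudocount. Of the nonsense-mediated decay factors 1 of 18 fell, the translation release factor Etf1 at -1.30 (limma adjusted p = 0.0188), and none rose. Without BMSC-CT replicate 3 the counts were 11 lower and 1 higher for the speckle proteins, 3 and 1 for the imprinted genes, and 3 and 1 for the decay factors, where 23.5% of all genes were called lower and 19.5% higher. In BF-D none of the 20, 18 and 18 genes of these lists that were tested passed in either direction, and without BF-D replicate 2 the calls were 2 imprinted genes lower and 1 decay factor higher.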

How the data were processed

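The authors deposited 1 gene table per comparison. Its deposited signal is a normalized count for each gene in each library. Dividing by the worth of a single read gave whole numbers for 100% of values (tolerance 0.01), so reads were recovered. The deposited log2 fold changes and p-values are used only where named. The aligner Bowtie 0.12.2 and mm8, a mouse build, come from the submitters' processing notes; the IDs are rat Ensembl IDs, the rat build is not given in the sources used here, and coordinates without a named build are as deposited. Whether counting used strand is not given in the sources used here. Upstream sequences are from RefSeq (GRCr8).

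limma 3.58.1 (empirical Bayes with a trend, R 4.3.3) took log2(normalized count + 1) as input, left out means below 1, and was fitted separately for BMSC-CT against BMSC-C and BF-D against BF-C. A gene is called where its p, adjusted over all genes tested by the Benjamini-Hochberg method, is under 0.05. edgeR 4.0.16 and DESeq2 1.42.0 were run on the recovered counts as alternatives. Of these fits, the limma fit was tried on simulated counts with known changes. CPM are recovered reads scaled to the library total. Precision is limited by 3 libraries per group, and 0 value columns were left without a sample. The members and the gene lists were chosen with earlier results of these data known. Named members are those with the highest BF mean, the called ones, those with the smallest p in BF-D against BF-C, those beside the threshold, and their nearest coding genes; the uneven, head to head and control-level examples were chosen after their values were seen.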

Additional observations from a re-analysis of the deposited data

How the results depend on the processing

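Of 280 values of named lincRNAs under an alternative, 222 kept their direction and side of the threshold, 55 kept the direction but no longer passed, 3 newly passed and 0 reversed. All results tallied passed the main test except AABR07051308.1 in BF-D, so only that one could newly pass, and it gave all 3. Settings that filtered a member out are not counted. In BMSC-CT the main counts were 1 higher and 12 lower. The count of higher members was 2 with TMM scaling, 3 with total read scaling, 4 with quantile normalization, with edgeR, with DESeq2 and with the length trend removed (added after seeing the data), and 6 with library quality weights. The count of lower members was 24 with DESeq2, 32 with library quality weights, 9 with quantile normalization and with edgeR, and 4 among the 36 members with a BF mean of at least 50. With single libraries left out, 1 to 6 were higher and 2 to 28 lower: 7 lower without BMSC-CT replicate 2, 28 without BMSC-CT replicate 3, 2 without BMSC-C replicate 1, 3 without BMSC-C replicate 2 and 4 without BMSC-C replicate 3, and 4 and 6 higher without BMSC-CT replicates 1 and 3. Total read scaling moved the median of all genes by -0.40 (log2), quantile normalization by 0.23, edgeR by 0.10 and the length step by 0.17. The share of all genes called stands above for DESeq2, edgeR, quantile normalization, the length step and the fit without BMSC-CT replicate 3. For the other settings, here and below, it is not given, and nothing particular to lincRNAs is read from their counts.

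In BF-D the count of lower members, 1 in the main test, was 0 with a mean of at least 10 and with edgeR, 2 with DESeq2 and with library quality weights, and 0 to 2 with single libraries left out. Same-numbered libraries did not deviate together throughout (correlations of 0.28, -0.03 and 0.26 in the BMSC table and 0.01, 0.009 and -0.02 in the BF table), so the numbers are not taken to pair them. Differently numbered libraries had -0.33 to 0.14 in the BMSC table and -0.04 to 0.04 in the BF table. Pairing in the BMSC table, where replicates 1 and 3 lay above that range, is thus not settled. With a replicate block 3 members were higher and 9 lower in BMSC-CT, and 0 were higher and 0 lower in BF-D. The causes were not tested. A member with few reads limits what can be seen: 1 read was worth up to 1.61 normalized counts.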
